A study of Homo sapiens with 4 samples.

Results

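SLC7A11 and SLC3A2 encode the 2 subunits of the cystine transporter of the cell surface. ATF3 peaks at both genes were taken from CUT&Tag, in which an antibody guides a transposase that cuts and tags DNA near the bound protein, on SW480 cells, an established human colorectal cancer line. Before the assay, cells spent 24 h in cystine-restricted medium (libraries CR1 and CR2) or in full medium (libraries FM1 and FM2), where the digit is the replicate number. All cells had been maintained with fetal bovine serum and antibiotics. All libraries used the same ATF3 antibody, no library made without that antibody was used here, and no labelled treatment other than the medium sets the groups apart. The labels do not say whether the libraries of a medium came from separate cultures, so the spread between libraries that the tests use may be technical. Peaks were included if they overlapped, in hg19, SLC7A11 (minus strand) or SLC3A2 (plus strand) with 50 kb added to both sides, that is, chromosome 4 from 139035248 to 139213503 or chromosome 11 from 62573484 to 62706355. The genes themselves are 78256 and 32872 bp long. This gave 45 peaks, which merged into 16 of the 44826 regions of the series, 3 at SLC7A11 and 13 at SLC3A2.

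SLC7A11, also called xCT, is the light chain that carries cystine into the cell in exchange for glutamate. SLC3A2, also called 4F2hc or CD98, is the heavy chain that holds the light chain at the plasma membrane and also pairs with other amino acid transporter light chains. Imported cystine is reduced to cysteine, which is needed for glutathione, and blocking this import is a common way to start ferroptosis, a form of cell death driven by lipid peroxides. ATF3 is a stress-induced bZIP factor that binds cAMP response elements and AP-1-like sites, and it has been described as a repressor of SLC7A11, whereas the related factor ATF4 activates it.

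RefSeq lists more than 1 start for SLC3A2, and ATF3 peaks lay at similar distances along the gene, so the promoter sequences of these starts are shown. Of the 2 genes, SLC3A2 matched the RefSeq promoter table (GRCh38.p14, 250 bases before and 50 after each start) with 3 windows, and the SLC7A11 promoter is not shown here. The windows lie on the plus strand at chr11:62855859-62856158, chr11:62880646-62880945 and chr11:62881449-62881748, and they are numbered 1 to 3 in that order. Capitals mark the bases that matched any motif searched.
SLC3A2 start 1: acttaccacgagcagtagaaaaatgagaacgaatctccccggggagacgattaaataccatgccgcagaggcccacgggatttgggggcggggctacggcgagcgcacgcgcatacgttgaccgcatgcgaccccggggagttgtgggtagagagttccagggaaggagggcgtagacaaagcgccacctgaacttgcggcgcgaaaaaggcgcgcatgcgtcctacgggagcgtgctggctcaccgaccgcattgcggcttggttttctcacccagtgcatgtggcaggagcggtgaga
SLC3A2 start 2: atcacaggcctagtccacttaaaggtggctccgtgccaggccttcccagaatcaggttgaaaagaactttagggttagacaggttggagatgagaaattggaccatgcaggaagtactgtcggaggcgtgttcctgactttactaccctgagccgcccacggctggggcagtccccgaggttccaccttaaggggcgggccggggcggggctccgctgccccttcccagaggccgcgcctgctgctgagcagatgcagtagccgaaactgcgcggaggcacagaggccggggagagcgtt
SLC3A2 start 3: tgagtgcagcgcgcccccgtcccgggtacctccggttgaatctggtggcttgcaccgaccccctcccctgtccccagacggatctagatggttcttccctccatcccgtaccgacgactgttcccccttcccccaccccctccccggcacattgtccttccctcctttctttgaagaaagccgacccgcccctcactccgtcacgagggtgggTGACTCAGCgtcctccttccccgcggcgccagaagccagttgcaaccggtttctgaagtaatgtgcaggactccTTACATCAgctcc

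Window 3 was the only one of the 3 with a match. It holds TGACTCA, an AP-1 site, at bases 214 to 220 of the window, and the same stretch extended to base 222 matches the antioxidant response element core TGACNNNGC. Its other match, TTACATCA at bases 288 to 295, is the reverse complement form of TGATGNAA, a relaxed form of the amino acid response element core. Both strands of each window were searched, so that TGACTCA and TGAGTCA count as 1 motif, as do TGATGCAA and TTGCATCA. The AP-1 motif is found in 4.96% of the 34943 RefSeq promoter windows of this length, TGACNNNGC in 13.3% and TGATGNAA in 3.62%. TGACGTCA, the cAMP response element (1.84% of windows), and TGATGCAA (0.87%) had no match in the 3 windows. A match is a description of the letters and not a measured binding site.

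The starts of windows 2 and 3 lie 24.8 and 25.6 kb after the first start in GRCh38.p14. In hg19, ATF3 summits inside SLC3A2 lay 24.8 kb after the gene start in all 4 libraries, and 25.3 to 25.9 kb after it in 3 of them. These distances were measured within each build, and no position was carried from one build to the other. The start of SNHG1, a non-coding host gene of small nucleolar RNAs, lies on the opposite strand 224 bp before the first SLC3A2 start in GRCh38.p14, so a peak at that start is close to both genes. Which of them it belongs to was not tested.

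The libraries differed little in depth between media. The genome background, the pileup expected if tags were spread evenly, was 1.298 and 1.084 tags in CR1 and CR2 and 1.106 and 1.318 tags in FM1 and FM2. The lowest listed summit pileup was 6 or 7 tags, and a missing peak means only that the caller's threshold was not reached in that library.

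Each gene had an ATF3 region at its start in every library. Around SLC7A11 there were 4 peaks in CR1 and 1 in each of the other 3 libraries. Around SLC3A2 there were 11 and 10 peaks in CR1 and CR2 and 9 and 8 in FM1 and FM2. The means at SLC3A2 were 10.5 ± 0.71 and 8.5 ± 0.71 (SD, n = 2 each), a ratio of 1.24, and the media did not overlap. Over chromosomes 1 to 22 and X the lists held 33838 and 29607 peaks in CR1 and CR2 against 17447 and 19132 in FM1 and FM2, a ratio of 1.73; whether either gene differs from that was not tested. The ratio of 2.5 at SLC7A11 rested on CR1, and without that library it was 1. The two-sided exact permutation p was 1.0 for SLC7A11 and 0.33 for SLC3A2 (Benjamini-Hochberg adjusted over the 2 tests, 1.0 and 0.67), and 0.33 is the smallest that 2 libraries against 2 allow. Cutting each list to equally many of its strongest peaks turned the ratio at SLC3A2 to 0.53, with 3 and 6 peaks under restriction and 9 and 8 in full medium. A −log10 q of at least 5 brought it to 1.

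**Figure D1:**
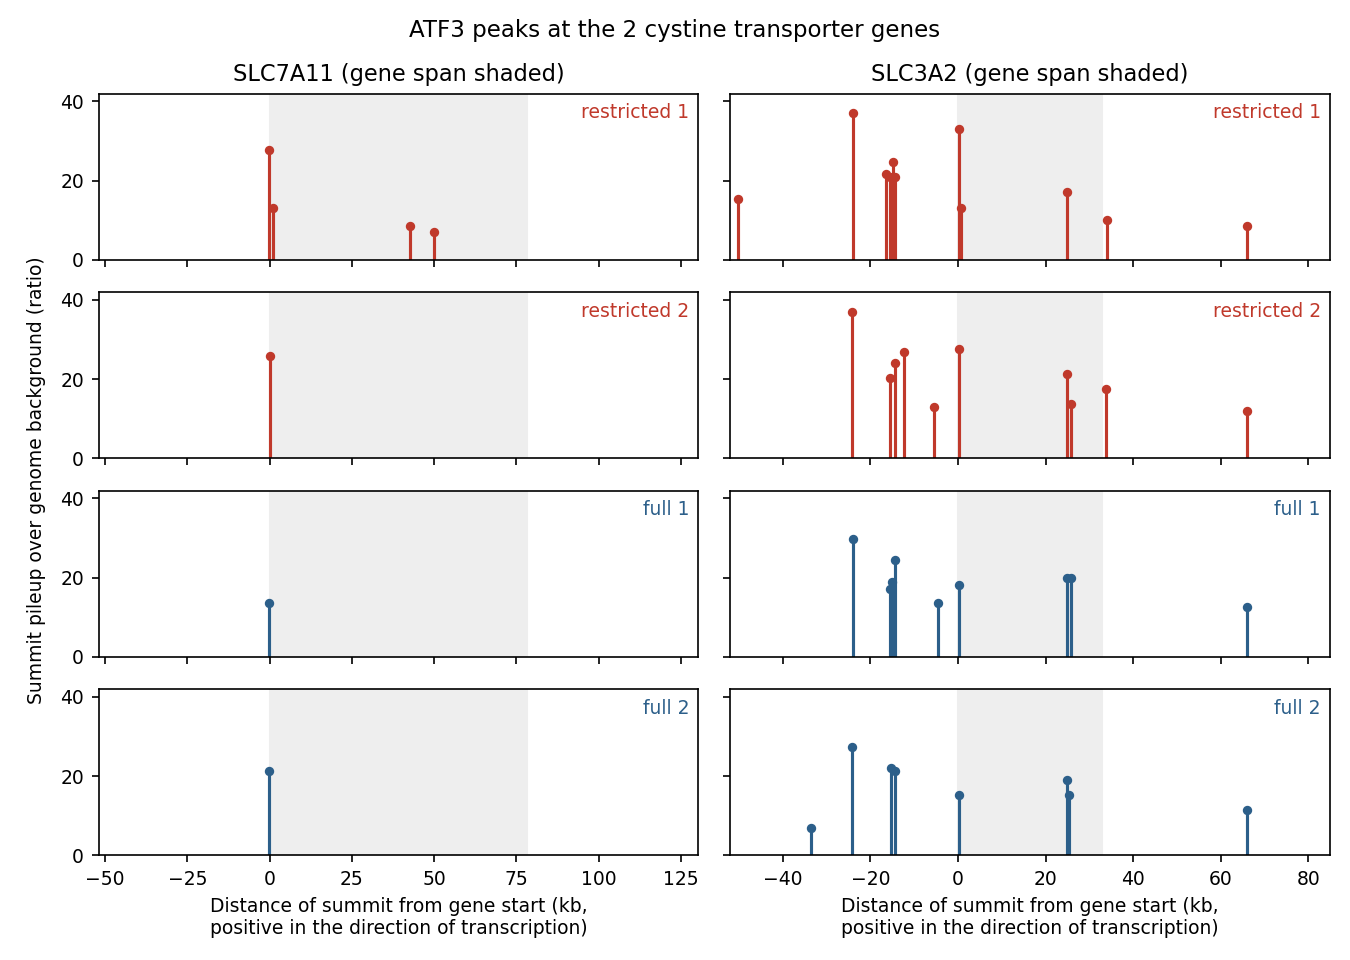
Summit pileup over the genome background of its library (vertical axis, ratio) against the distance of the summit from the gene start (horizontal axis, kb) for every ATF3 peak at SLC7A11 (left) and SLC3A2 (right), 1 row per library, with the gene span shaded. SLC7A11 has 1 tall peak at its start in every library, and SLC3A2 has peaks at its start, about 25 kb inside the gene and in the upstream flank.

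Of the 16 regions, 6 had a peak in all 4 libraries, 1 at SLC7A11 and 5 at SLC3A2, against 23.0% of all regions of the series. Only 1 was gained, that is, listed in both cystine-restricted and in neither full-medium library, against 12.7% of all regions, and none was lost, the reverse case, against 0.386% of all regions. Another 8 were listed in a single library, against 46.4% of all regions. Of these 8, 6 were in a cystine-restricted library, 4 of them in CR1. Over the whole series, 78.5% of single-library regions were in a cystine-restricted library. The last region, at the edge of the SLC3A2 window, had only a CR1 peak inside the window and joined peaks of CR2 and FM1 outside it. With so few regions, these counts are descriptions.

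At the start of SLC7A11, ATF3 height was greater under cystine restriction, but the full-medium libraries differed widely. The merged region spanned 139162549 to 139163761 on chromosome 4 (hg19) and covered the first base of the gene. The summit pileup was 36 and 28 tags in CR1 and CR2 and 15 and 28 tags in FM1 and FM2. The media thus shared the value of 28 tags before scaling. Exact 95% Poisson intervals were 25.2 to 49.8 for 36 tags, 18.6 to 40.5 for 28 tags and 8.4 to 24.7 for 15 tags. Divided by the genome background, the heights were 27.7 and 25.8 under restriction and 13.6 and 21.2 in full medium, and on this scale the media did not overlap. The means were 26.8 ± 1.3 and 17.4 ± 5.4 (SD, n = 2 each).

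The change at the SLC7A11 start was 0.66 ± 0.27 on the log2 scale (SE; 95% interval 0.11 to 1.20), a 1.58-fold greater height, with an adjusted p of 0.045 in limma. This call was lost on leaving out CR1 (adjusted p = 0.22 in limma), CR2 (0.12) or FM1 (0.33), where the change was 0.61, 0.71 and 0.33. Without FM2 the change was 0.98 and the adjusted p 0.0098. The local background around the peak was itself higher under restriction, at 2.23 and 2.09 times the genome background in CR1 and CR2 against 1.09 and 1.44 times in FM1 and FM2. This background may count the peak's own tags, so a taller peak can raise it. Its part in the result was not tested. With 1 added to both pileup and local background, the height over the local background changed by 0.11 (adjusted p = 0.72 in limma). Local backgrounds were only 2.89 and 2.27 tags in CR1 and CR2 and 1.21 and 1.9 in FM1 and FM2. The added 1 therefore bears on this value, and the direction of so small a change is not settled. No ratio without the added 1 was fitted.

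The summits at the SLC7A11 start were in nearly the same place in 3 libraries. They lay 60 bp upstream of the gene start in CR1 and FM2 and 62 bp upstream in FM1. In CR2 the highest point was 140 bp inside the gene. CR1 had another, lower peak in the same region, with its summit 869 bp inside the gene and a pileup of 17 tags. The main peak ranked at percentile 87.5 and 85.3 of the lists of CR1 and CR2 by −log10 p, and at 66.9 and 88.8 of those of FM1 and FM2. These lists hold 33838 and 29607 peaks in CR1 and CR2 against 17447 and 19132 in FM1 and FM2. The percentiles are therefore not comparable between media. The authors' fold enrichment of the main peak was 9.50 and 8.88 under restriction and 7.22 and 9.98 in full medium, values that belong to each list by itself.

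Elsewhere in SLC7A11, ATF3 was listed only in CR1. These 2 regions lay inside the gene 42.6 and 50 kb after its start, with pileups of 11 and 9 tags, close to the lowest pileup of that list, 7 tags. No peak was listed in the 50 kb flanks. In the reference order SLC7A11 is overlapped by the antisense RNA SLC7A11-AS1, and the method does not tell which strand a peak belongs to.

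Over the genome background, the start of SLC3A2 had the lowest adjusted p of the 6 regions listed in all 4 libraries. The region spanned 62623355 to 62623972 on chromosome 11 (hg19), and the 4 summits lay within 167 to 188 bp after the gene start. The summit pileup was 43 and 30 tags in CR1 and CR2 and 20 tags in both full-medium libraries. The 95% Poisson intervals were 31.1 to 57.9 and 20.2 to 42.8 for the cystine-restricted libraries and 12.2 to 30.9 for each full-medium library. Both cystine-restricted values were above both full-medium values before and after scaling. Relative to the genome background the heights were 33.1 and 27.7 against 18.1 and 15.2, with means of 30.4 ± 3.9 and 16.6 ± 2.1 (SD, n = 2 each).

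Height at the SLC3A2 start rose by 0.87 ± 0.26 on the log2 scale (SE; 95% interval 0.35 to 1.40), a 1.83-fold change, with an adjusted p of 0.0072 in limma. Without CR1 the change was 0.74 and the adjusted p 0.13, and it stayed under the threshold without any one of the other 3 libraries, with adjusted p of 0.0028 to 0.039. The local background, at 3.71 and 2.86 times the genome background under restriction, was also above that in full medium, 2.48 and 2.25 times. It too may count the peak's own tags, and its part was not tested. Over the local background, again with 1 added to both, the change was 0.47 (adjusted p = 0.15 in limma). The peak ranked at percentile 86.9 and 83.3 of the cystine-restricted lists and at 62.8 and 62.3 of the full-medium lists. The cystine-restricted lists are longer, so these percentiles are not comparable between media.

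**Figure D2:**
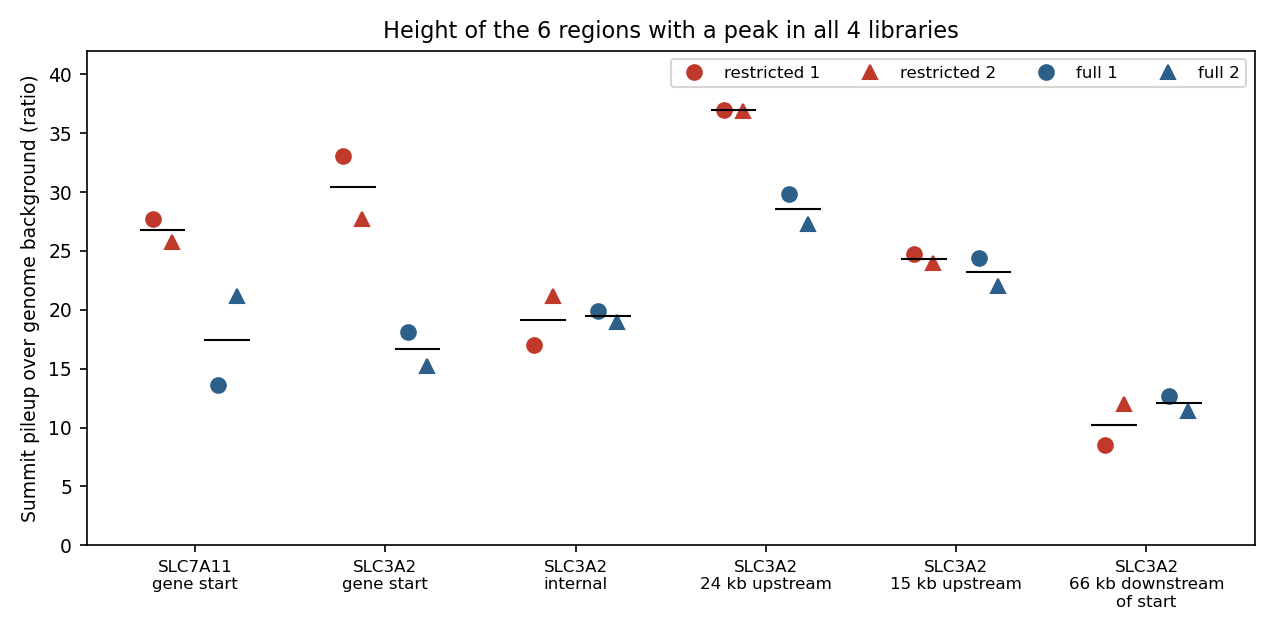
Summit pileup over the genome background (vertical axis, ratio) in each library, for the 6 regions listed in all 4. Points are libraries (circles CR1 and FM1, triangles CR2 and FM2; red under cystine restriction, blue in full medium), and black lines are the means of the 2 libraries of a medium. The media are apart at both gene starts and at the region 24 kb upstream of SLC3A2, and overlap at the other 3.

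Inside SLC3A2, at the distance of its other RefSeq starts, ATF3 height did not pass the test. The region spanned 62647781 to 62649493, and its summit pileup was 22 and 23 tags in CR1 and CR2 and 22 and 25 tags in FM1 and FM2. Relative heights of 17 and 21.2 under restriction and 19.9 and 19.0 in full medium overlapped. The change was −0.03 (95% interval −0.59 to 0.52, or ratios of 0.67 to 1.43; adjusted p = 0.93 in limma). The region joins summits at 24.8 kb with others at 25.3 to 25.9 kb. The second summit had 15 tags in CR2 and 22 and 20 tags in FM1 and FM2. CR1 had a single peak, from 62647781 to 62649152, and no second summit was listed for it.

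The 2 SLC3A2 regions were compared within each library, which needs no scaling between libraries. The pileup at the gene start was 1.95 and 1.30 times that of the internal region in CR1 and CR2, and 0.91 and 0.80 times in FM1 and FM2. By pileup, the start was the higher of the pair under restriction and the lower in full medium, in each library. Exact Poisson intervals of start and internal region overlapped in each library, narrowly in CR1 (31.1 to 57.9 and 13.8 to 33.3). They were 20.2 to 42.8 and 14.6 to 34.5 in CR2. In FM1 they were 12.2 to 30.9 and 13.8 to 33.3, and in FM2 12.2 to 30.9 and 16.2 to 36.9. Whether the order within a single library exceeds counting error was not tested. The log2 ratio was 0.68 ± 0.41 and −0.23 ± 0.13 (SD, n = 2 each), with an exact permutation p of 0.33 (two-sided), which is as low as 2 libraries against 2 can reach. The SLC7A11 start over the same internal region gave ratios of 1.64 and 1.22 under restriction against 0.68 and 1.12 in full medium (exact permutation p = 0.33). The SLC7A11 start over the SLC3A2 start gave 0.84 and 0.93 against 0.75 and 1.40, which overlapped (exact permutation p = 1.0). Over these 3 ratios the Benjamini-Hochberg adjusted values were 0.50, 0.50 and 1.0. The ratios were chosen after the heights had been seen.

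The highest ATF3 region around both genes lay in the upstream flank of SLC3A2. It spanned 62599126 to 62600253, with summits 23.9 or 24.2 kb before the gene start. Its pileup was 48 and 40 tags in CR1 and CR2 and 33 and 36 tags in FM1 and FM2, or 37.0, 36.9, 29.8 and 27.3 times the genome background. The media did not overlap, yet the change of 0.37 (95% interval −0.08 to 0.82) had an adjusted p of 0.17 in limma. In the reference order STX5, TEX54, WDR74, the small nuclear RNA gene RNU2-2 and SNHG1 precede SLC3A2, and this region was not assigned to any of them.

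A cluster of peaks followed closer to SLC3A2, with 10 peaks joined from 62607580 to 62609563. Its highest summit had 32 and 26 tags under restriction and 27 and 29 tags in full medium, with overlapping relative heights of 24.7 and 24.0 against 24.4 and 22. The change was 0.07 (adjusted p = 0.83 in limma). The local background there was 4.74 to 6.55 times the genome background, the highest of the 6 regions. The region farthest downstream, 62689380 to 62689814, was low in each library, with 11 and 13 tags under restriction and 14 and 15 in full medium, and changed by −0.25 (adjusted p = 0.49 in limma). CHRM1, a muscarinic acetylcholine receptor gene, is the next protein-coding gene after SLC3A2 in the reference order.

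The gained region lay just beyond the end of SLC3A2, from 62657239 to 62657707. It had 13 tags in CR1 and 19 tags in CR2, or 10.0 and 17.5 times the genome background. By −log10 p it ranked at percentile 3.1 of the list in CR1 and 52.6 in CR2. With a −log10 q of at least 5, with lists of equal length or with a reciprocal overlap of 50%, no region at either gene was gained.

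The 6 regions around SLC3A2 listed in 1 library had pileups of 9 to 29 tags. In CR1 they were 16.4 kb before the gene start and 792 bp after it, and in CR2 at 12.4 and 5.4 kb before it. FM1 had one 4.5 kb before the start and FM2 one 33.4 kb before it. The region at the edge of the window had its CR1 summit 50.2 kb before the start, with 20 tags.

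The changes at both genes were set beside those at all 10331 regions listed in all 4 libraries, whose median change was 0.53 (interquartile range 0.29 to 0.78). In the same limma fit 43.2% of these regions rose and 0.407% fell, and 2 of the 6 regions here rose, both of them gene starts, and none fell. Both cystine-restricted heights were above both full-medium heights at 3 of the 6, against 72.8% of all, and below them at none, against 2.38% of all. The median change of the 6 was 0.22. The SLC3A2 start was at percentile 81.4 of all changes and the SLC7A11 start at 63.5, whereas the internal SLC3A2 region was at 6.8, the upstream regions at 32.9 and 11 and the downstream one at 2.3.

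**Figure D3:**
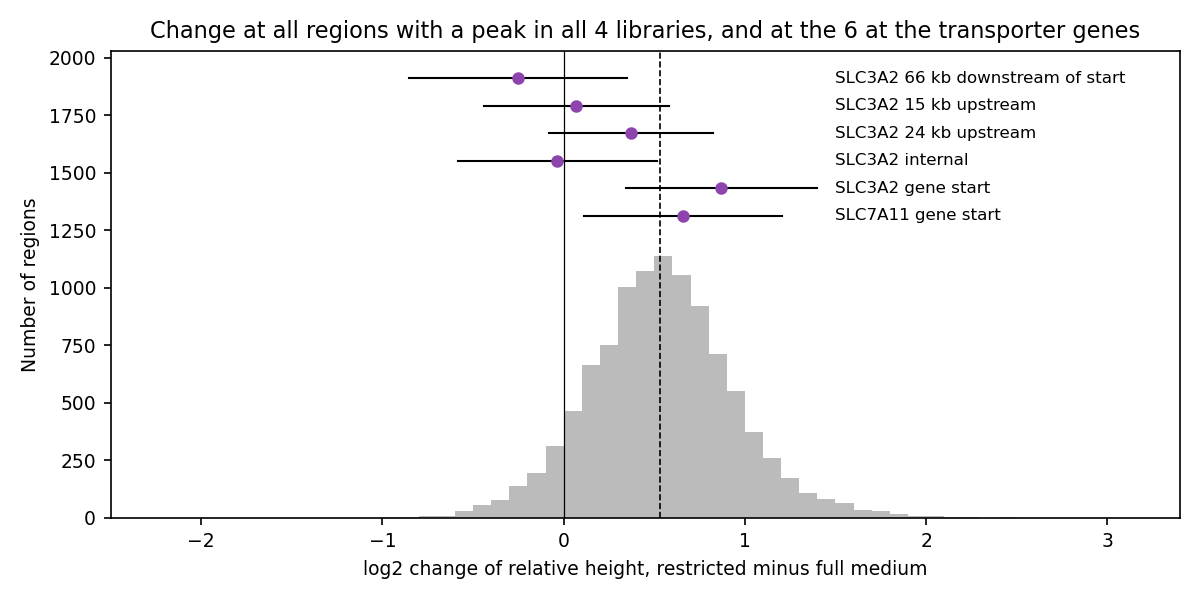
Number of regions (vertical axis) by log2 change of relative height, restricted minus full medium (horizontal axis), for the 10331 regions listed in all 4 libraries. Points above the grey histogram are the 6 regions at the transporter genes, with 95% limma intervals as lines, and the dashed line is the median of all regions, 0.53. Both gene starts lie to the right of the dashed line and the other 4 regions to its left.

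With each library's heights centred on their median over all these regions, which left a median change of −0.04, 512 regions (4.96%) rose and 442 (4.28%) fell, in place of 4461 and 42, so that 53.7% rather than 99.1% of the calls were higher. On this scale none of the 6 passed the test. The change at the SLC3A2 start was then 0.30 (95% interval −0.19 to 0.79; adjusted p = 0.51 in limma) and that at the SLC7A11 start 0.09 (−0.43 to 0.61; adjusted p = 0.89). The internal SLC3A2 region was at −0.60 (adjusted p = 0.15 in limma) and the downstream one at −0.82 (0.065). The regions 24 and 15 kb upstream were at −0.20 and −0.50, below 0 where they had been above it over the genome background. Thus, with the general rise over the genome background removed, the change at either gene start did not pass the test. Over the local background the median change of all these regions was 0.21. Whether the general rise lies in ATF3 binding or in the enrichment of the libraries was not tested.

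**Figure D4:**
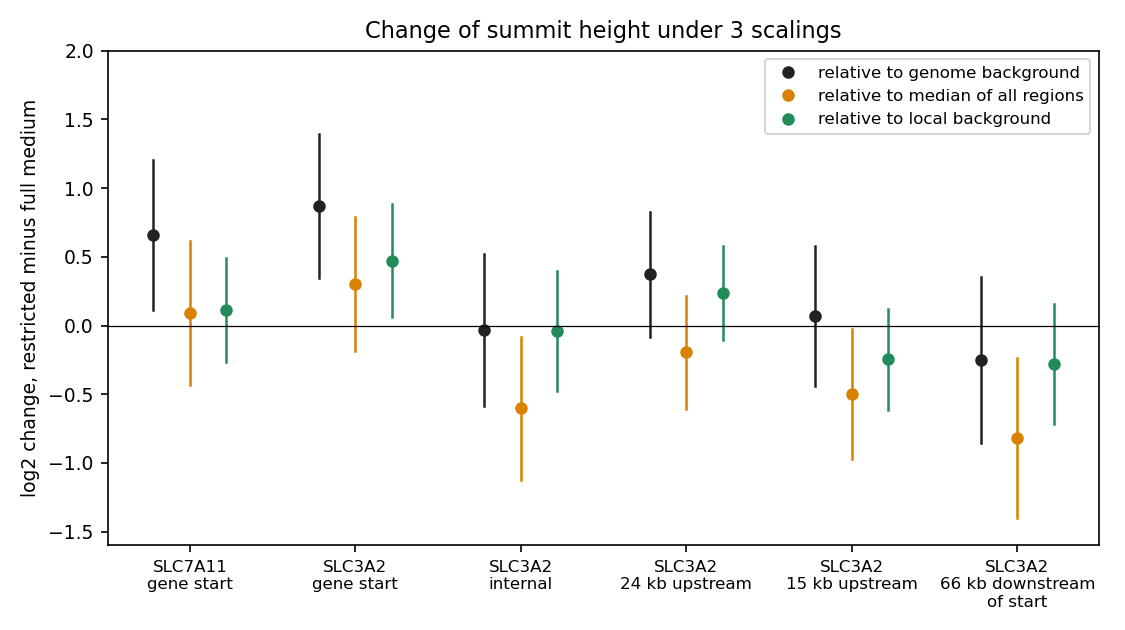
Log2 change of summit height, restricted minus full medium (vertical axis), at the 6 regions, with 95% limma intervals as lines. Black points are heights over the genome background, and orange points are centred on the median of all regions in all 4 libraries. Green points are over the local background, with 1 added to both pileup and background. Over the genome background both gene starts lie above 0, at 0.66 and 0.87, and their intervals include 0 once heights are centred on the median.

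In height both gene starts lay near the middle of the regions listed in all 4 libraries, which are 23.0% of all regions of the series. Among regions in all 4 libraries, the mean log2 height of the SLC7A11 start was at percentile 50.1 and that of the SLC3A2 start at 53.3. The region 24 kb upstream was at 73.4, the one 15 kb upstream at 57.1, the internal one at 42.9 and the downstream one at 6.2. The regions closest to the SLC7A11 start in their 4 log2 heights, by Euclidean distance, were 50759869 to 50760419 on chromosome 13, 63334501 to 63335142 on chromosome 11 and 53815072 to 53815614 on chromosome 12, at distances of 0.137 to 0.173. Those closest to the SLC3A2 start were 95241736 to 95242841 on chromosome 14, 73034294 to 73035186 on chromosome 16 and 110971883 to 110972762 on chromosome 13, at 0.088 to 0.112. This likeness rests on 4 libraries and is a description.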

How the data were processed

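The members and lists were chosen with earlier results of these data known. The submitters' processing notes name MACS2 2.2.7.1, BWA 0.7.17, fastp 0.19.7 and bcl2fastq 2.17, and the build hg19. The settings of MACS2 were not given in the sources used. The authors deposited 1 peak list per library, holding for each peak a fold enrichment (a ratio), the −log10 of its p and of its q, and a score. The score is 10 times the −log10 q, whole part, in all but 2 to 10 peaks of each deposited list. The deposited files give the summit as an offset from the peak's first base.

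The whole-number summit pileup and its background were worked out from fold = (pileup + 1)/(background + 1) and the Poisson p. For 100% of peaks of every list this gave back the deposited −log10 p to within 0.1%. In every list 100% of backgrounds equalled the genome background or lay on steps of 0.015. Tags of 150 bp counted over a window of 10 kb would give such steps. If that window was counted around the peak in the same library, it holds the peak's own tags. The lowest background of a list, the genome background, scales with depth and would correspond to 19.5 to 23.7 M tags per library on the assumption that the caller's genome size was 2.7 Gb. Pileups are tag counts, so exact Poisson intervals at 95% are given, for counting error only, since PCR copies are not independent molecules.

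Peaks on chromosomes 1 to 22 and X that shared at least 1 bp were joined. Heights were log2(pileup/genome background), with no pseudocount. Heights set over the local background were log2((pileup + 1)/(local background + 1)). All 10331 regions with a peak in all 4 libraries were fitted together with limma 3.58.1 in R 4.3.3 (empirical Bayes with trend, Benjamini-Hochberg adjustment, threshold 0.05), without a replicate term. Peak numbers and ratios were compared by two-sided exact permutation tests. Pileup recovery and the limma fit were tested on simulated data. The simulated fit had Poisson noise only and a larger change than those at the gene starts, so it does not speak to changes of their size. Python 3.11.15, numpy 2.4.6, scipy 1.17.1, pandas 2.3.3 and matplotlib 3.10.9 were used. Alternatives were a cutoff of 5 on −log10 q, equal numbers of top peaks, a 10 kb flank, a reciprocal overlap of 50%, heights centred on the median or set over the local background, leaving out the 1% highest regions or each library, and a replicate block. Described with a value in every library were the region at each gene start, every region inside a gene present in at least 2 libraries and the highest region of each gene; the other regions at both genes are also listed. The light-chain and cystine-carrier genes listed for comparison need gene positions in hg19 and were not analysed here.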

Additional observations from a re-analysis of the deposited data

How the results depend on the processing

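The number of regions with a peak in all 4 libraries was 6 here. A cutoff of 5 on −log10 q gave 5, and equal numbers of top peaks gave 4. The number was 3 with a flank of 10 kb and 3 with a reciprocal overlap of 50%. The number gained, 1 here, was 0 with a cutoff of 5 on −log10 q, with equal numbers of top peaks and with reciprocal overlap. It was 1 to 7 with 1 library left out and, within same-numbered pairs (replicate block), 7 in pair 1 and 3 in pair 2, where fewer libraries are required. The ratio of peak numbers at SLC3A2 was 1 with the cutoff of 5 and 0.53 with equal numbers of top peaks. At SLC7A11 it was 1 with equal numbers and 1 to 4 with 1 library left out. The replicate block gave ratios of 2 at SLC7A11 and 1.24 at SLC3A2.

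For the SLC3A2 start the height change was 0.30 centred on the median, 0.47 over the local background and 0.74 to 1.00 with 1 library left out. For the SLC7A11 start it was 0.09, 0.11 and 0.33 to 0.98. Over those alternatives the region 24 kb upstream of SLC3A2 was at −0.20 when centred, the one 15 kb upstream at −0.50 when centred, −0.25 over the local background and −0.0049 (without FM2) to 0.14 with 1 library left out, and the internal one at 0.13 without CR1. Of all regions in all 4 libraries, 512 rose and 442 fell when centred, and 512 rose and 3 fell over the local background. Without the 1% highest regions 27 fell, and with 1 library left out 1868 to 4913 rose and 12 to 44 fell. With the replicate block in the limma fit the SLC7A11 start had an adjusted p of 0.049, and the block changed no call at the 6 regions. Same-numbered libraries deviated from their media with a correlation of 0.01 over 10331 regions. This cannot tell whether they shared a culture or batch, since a shift common to all regions leaves no trace in it. Why the results depended on the processing was not tested. Pileups of 9 to 48 tags limit what can be told apart.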
